A study of Mus musculus with 189 samples.

Results

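Stem cells of the dentate gyrus were compared here between 2 clusters that the authors deposited under the names q2 and q1. The members are all cells whose deposited annotation reads q2 (19 cells) or q1 (45 cells). These 64 cells are 33.9% of the series, which holds 72 cells of P3, 54 of P7 and 63 of P14. The cells were sorted for green fluorescence from C57BL/6 mice with a Hopx-GFP reporter, in which the promoter of Hopx, a gene active in these stem cells and in astrocytes, marks the cells. They came from postnatal day 3 (P3), day 7 (P7) and day 14 (P14), and SMART-Seq2, which reads whole transcripts of 1 sorted cell per well, was used on each. The labels give no treatment, and the name quiescent neural stem cell is given to all cells alike, so q1, q2 and the other clusters share it. Of the q2 cells, 2 were from P3, 2 from P7 and 15 from P14, which is 78.9% from P14 (exact 95% binomial interval 54.4 to 93.9%). Of the q1 cells, 25 were from P3, 14 from P7 and 6 from P14, which is 13.3% from P14 (5.05 to 26.8%). The clusters a1 and MA serve as points of reference, with 45 and 18 cells, all 18 from P14, and these names are not spelled out in the sources used here.

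Neural stem cells of the dentate gyrus are radial cells that share much of their gene expression with astrocytes, the glia that take up transmitters, ions and nutrients around synapses. During the first weeks after birth most of them leave the cell cycle, and quiescent stem cells are known for lower protein synthesis, use of fatty acids and genes of cell adhesion. Deeper and shallower states of quiescence have been described, in which cells take longer or shorter to re-enter the cycle. Fam107a, an actin-associated protein gene that glucocorticoids induce, Lpar1, a receptor for lysophosphatidic acid used to mark stem cells of this region, and Bc1, a short noncoding RNA, are the markers given for the q2 cells.

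No animal is named in the labels, so each age is 1 sample and the cells are not replicates of a condition. The clusters were made from the same cells and genes that are compared here. Every value below is therefore a description, and no p-value was computed. Levels are log2(CPM + 1) per cell, where CPM is the estimated count of a gene per 1e+06 counts of the cell. A difference is the mean over q2 cells minus the mean over q1 cells on that scale. For genes at a low level it is smaller than the fold, and a cell in which the gene was not read weighs heavily. Below, a gene was read in a cell, or a cell had it, if it was above 1 CPM. For globin any count was taken.

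The q2 cells held fewer detected genes than the q1 cells, although their median depth over all ages was higher. Counts per cell ran from 26714 to 1816241 with a median of 155938 in q1, and from 46080 to 3779368 with a median of 256479 in q2. Genes above 1 CPM per cell ran from 1638 to 3779 with a median of 2697 in q1, and from 853 to 3036 with a median of 1936 in q2, so the groups overlapped. After each cell was thinned to 50000 counts the medians were 2412 in 40 q1 cells and 1666 in 18 q2 cells, with 5 and 1 shallower cells left out. Within P14 the 6 q1 cells had 2593 to 3746 genes (median 2826) and the 15 q2 cells 853 to 3036 (median 1970), at median counts of 512020 and 280323. Of 354 genes that were above 1 CPM in at least 90% of a1 cells, a q1 cell had a median of 94.6% (84.2 to 99.7%), a q2 cell 73.4% (49.7 to 88.7%) and an MA cell 78% (42.7 to 93.8%). This set was chosen after the data were seen. The 50 highest genes of a cell took a median of 23.4% of its counts in q1 and 29.62% in q2, and mitochondrial transcripts took 2.687% in q1, 4.918% in the P14 cells of q1 and 6.171% in q2. The part of detection in the differences below was not tested.

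**Figure D1:**
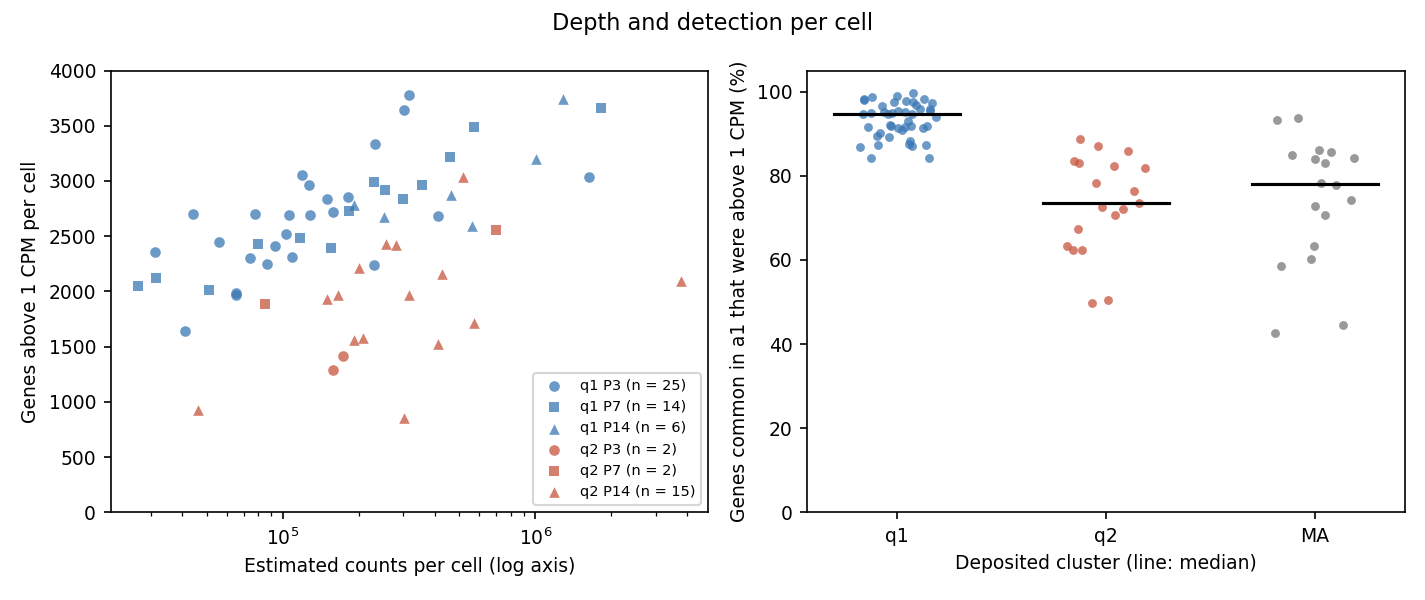
Genes above 1 CPM against estimated counts per cell for q1 (blue) and q2 (red) by age (left, counts on a log axis), and the share of 354 genes common in a1 that each q1, q2 and MA cell showed (right, line at the median). At like counts most q2 cells lie under the q1 cells, and the medians on the right are 94.6%, 73.4% and 78%.

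The cells of both clusters were mostly outside the cycle by a count of mitosis genes, which encode the machinery of cell division. Cells with at least 3 such genes above 1 CPM numbered 7 of 45 in q1 (15.6%, exact 95% interval 6.49 to 29.5%) and 2 of 19 in q2 (10.5%, 1.3 to 33.1%), against 38 of 45 in a1 (84.4%). The intervals of q1 and q2 overlap, but they cover counting error only, and whether the clusters differ was not tested. The call also rests on the detection of genes, which was lower in q2. In the thinned cells it held for 6 of 40 in q1 (15%) and 1 of 18 in q2 (5.56%). The deposited pseudotime, an order of the stem cells made by the authors, placed q2 at its end, from 47.84 to 49.99 with a median of 49.01. The q1 cells ran from 11.40 to 48.37 with a median of 33.86, and the 6 q1 cells of P14 from 33.23 to 48.04 with a median of 47.52.

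Of the 3 markers given for q2, Bc1 and Fam107a were higher in q2 over all ages, but inside q1 all 3 were at their highest level at P14, and at P14 alone Fam107a and Lpar1 were no higher in q2. The label was thus not borne out by Fam107a and Lpar1 at matched age, while Bc1 was higher in q2 there by 0.81 (0.42 to 1.08 with each P14 cell left out in turn). Bc1 was not particular to q2 at P14, where its mean was 6.36 in q2, 5.54 in q1, 5.87 in a1 and 6.50 in MA. The SD over cells was 1.33 in the P14 cells of q2 and 1.30 in those of q1. The clusters are called q2 and q1 throughout.

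The RNA Bc1 is transcribed by RNA polymerase III and is known from neurons, where it binds factors of translation initiation. Its sequence is shown because its middle holds an A-rich stretch, here in capitals, while SMART-Seq2 starts its cDNA from an oligo-dT primer. The gene lies at chr7:144914470-144914637 on the plus strand of GRCm38, in the annotation of GENCODE M21, from whose transcripts the bases were read.
Bc1: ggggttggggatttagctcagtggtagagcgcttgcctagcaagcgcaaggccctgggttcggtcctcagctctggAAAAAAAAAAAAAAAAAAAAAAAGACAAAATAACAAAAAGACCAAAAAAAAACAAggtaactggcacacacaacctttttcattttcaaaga
The capitals mark 55 bases from base 77 on, of which 85.5% are A, with a longest run of 23. Whether the primer started cDNA there was not tested.

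Bc1 was read in 18 of 19 q2 cells and in 17 of 45 q1 cells. Its level ran from 0.00 to 8.30 with a median of 5.83 in q2, and from 0.00 to 8.04 with a median of 0.00 in q1. The means were 5.72 ± 1.96 (SD over cells, n = 19) in q2 and 1.61 ± 2.35 (n = 45) in q1, a difference of 4.11. The share of cells above 1 CPM was 94.7% in q2 (exact 95% interval 74 to 99.9%) and 37.8% in q1 (23.8 to 53.5%). Within q1 the means were 1.34 (P3), 0.41 (P7) and 5.54 (P14). All 6 q1 cells of P14 had it, at 3.56, 4.39, 5.73, 6.32, 6.41 and 6.87, and all 15 q2 cells of P14 had it, at 3.85 to 8.30 with a median of 6.61. The P14 groups overlapped over most of their range, with a difference of 0.81. The 2 q2 cells of P3 stood at 4.72 and 4.89 and those of P7 at 0.00 and 3.67. All 18 MA cells had it too, at a mean of 6.50, and so did all 8 a1 cells of P14, at a mean of 5.87.

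Fam107a was above 1 CPM in 12 of 19 q2 cells (63.2%, exact 95% interval 38.4 to 83.7%) and in 11 of 45 q1 cells (24.4%, 12.9 to 39.5%). Its level ran from 0.00 to 10.46 with a median of 4.76 in q2, and from 0.00 to 9.44 with a median of 0.00 in q1. The means were 4.90 ± 4.30 (SD, n = 19) and 1.61 ± 3.11 (SD, n = 45), a difference of 3.29. The 12 q2 cells with reads were all from P14, and the 4 younger q2 cells were at 0.00. In q1 it was read in 2 of 25 cells at P3, 4 of 14 at P7 and 5 of 6 at P14, with means of 0.47, 1.47 and 6.66. At P14 the 6 q1 cells stood at 0.00, 5.13, 7.07, 9.08, 9.24 and 9.44, and the 15 q2 cells ran from 0.00 to 10.46 with a median of 8.25. The difference at P14 was -0.45, and it ran from -1.78 to 0.11 when each P14 cell was left out in turn. MA cells had a mean of 7.43, with reads in 16 of 18.

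Lpar1 was above 1 CPM in 8 of 19 q2 cells and in 16 of 45 q1 cells. Its level ran from 0.00 to 10.96 with a median of 0.00 in q2, and from 0.00 to 11.60 with a median of 0.00 in q1. The means were 3.37 ± 4.45 (SD, n = 19) and 2.49 ± 3.76 (SD, n = 45), a difference of 0.88. The q1 means by age were 1.23 (P3), 2.11 (P7) and 8.59 (P14). At P14 the order turned: the 6 q1 cells all had the receptor, at 7.18, 7.73, 8.55, 8.63, 9.32 and 10.12, while 8 of 15 q2 cells had it, from 0.00 to 10.96 with a median of 2.29. The difference at P14 was -4.32, between -4.80 and -4.01 with each P14 cell left out in turn. In MA it had reads in 1 of 18 cells and a mean of 0.55.

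**Figure D2:**
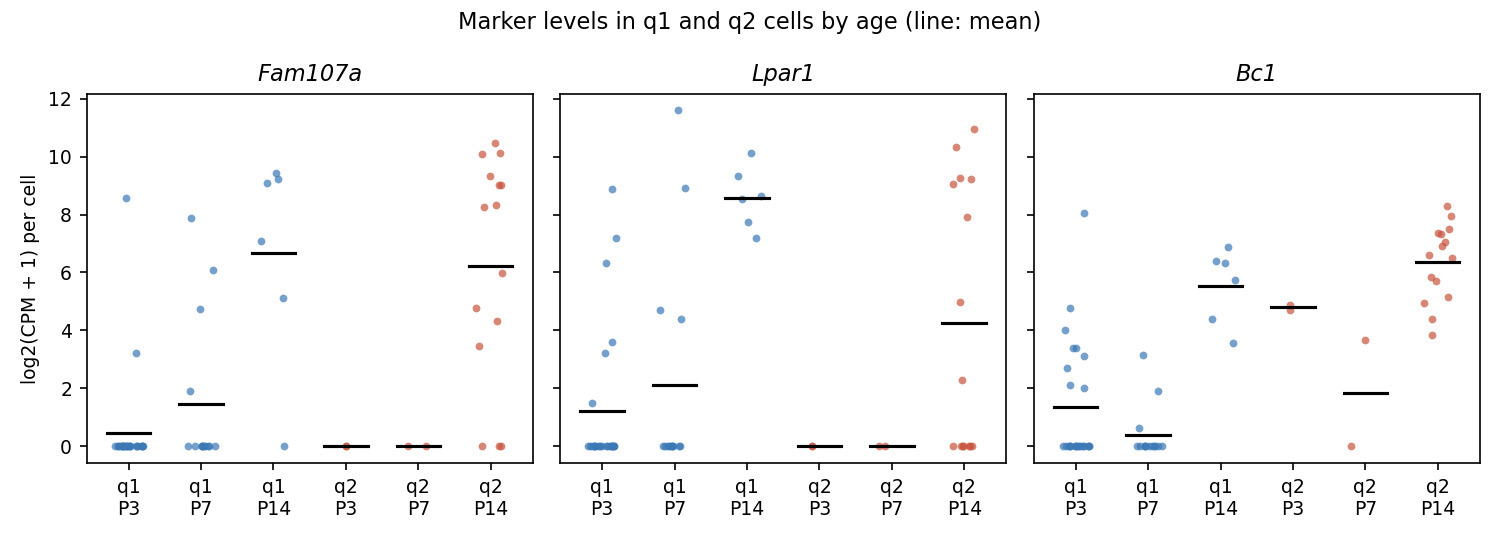
Level of Fam107a, Lpar1 and Bc1 in log2(CPM + 1), each point 1 cell, for q1 (blue) and q2 (red) at P3, P7 and P14, with a line at the mean. In q1 the P14 mean stands above the P3 and P7 means for all 3 genes, at 6.66, 8.59 and 5.54, against 6.21, 4.27 and 6.36 in the P14 cells of q2.

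The genes whose level was most like that of Fam107a over the 64 cells were Bc1 (Pearson r = 0.631), Pla2g16 (0.479), Ntrk2 (0.479), Ppp1r16b (0.476) and Manea (0.47). These values describe cells that share age, depth and detection, with no test. Ntrk2, the receptor for brain-derived neurotrophic factor, had means of 5.60 in q1 and 7.39 in q2, a difference of 1.79 that was 0.03 at P14.

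Over all genes, q2 had more lower than higher values when all cells were averaged, and about as many of each when only cells with the gene were averaged. A gene was measured if 20% or more of q1 or of q2 cells had it above 1 CPM. Of 5123 such genes, 3989 had a lower and 1134 a higher mean in q2, and the median difference was -0.90. Genes higher in q2 by at least 2 log2 units numbered 34 (0.664%), and genes lower by as much 847 (16.5%). With P14 cells alone the same limits gave 109 higher (2.13%) and 1220 lower genes (23.8%), around a median of -0.76. Genes lower in both numbered 529, which is 62.46% of the list over all ages and 43.36% of the P14 list. Genes higher in both numbered 10, which is 29.41% and 9.174% of the lists, and 11 of the 34 higher genes had a difference under 0 at P14. Both comparisons share the P14 cells. In the 45 q1 cells and the 13 q2 cells with at least 70% of the genes common in a1, a limit set after the data were seen, 2.17% of genes were higher and 13.2% lower by at least 2. With every difference centred on the median of measured genes, 4.22% were higher and 5.91% lower, a more even split. Over cells above 1 CPM only, 5.65% were higher and 5.44% lower, close to an even split. That setting covered 3768 genes, those with at least 3 such cells in each cluster. Genes with fewer such cells in either cluster were left out of it.

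**Figure D3:**
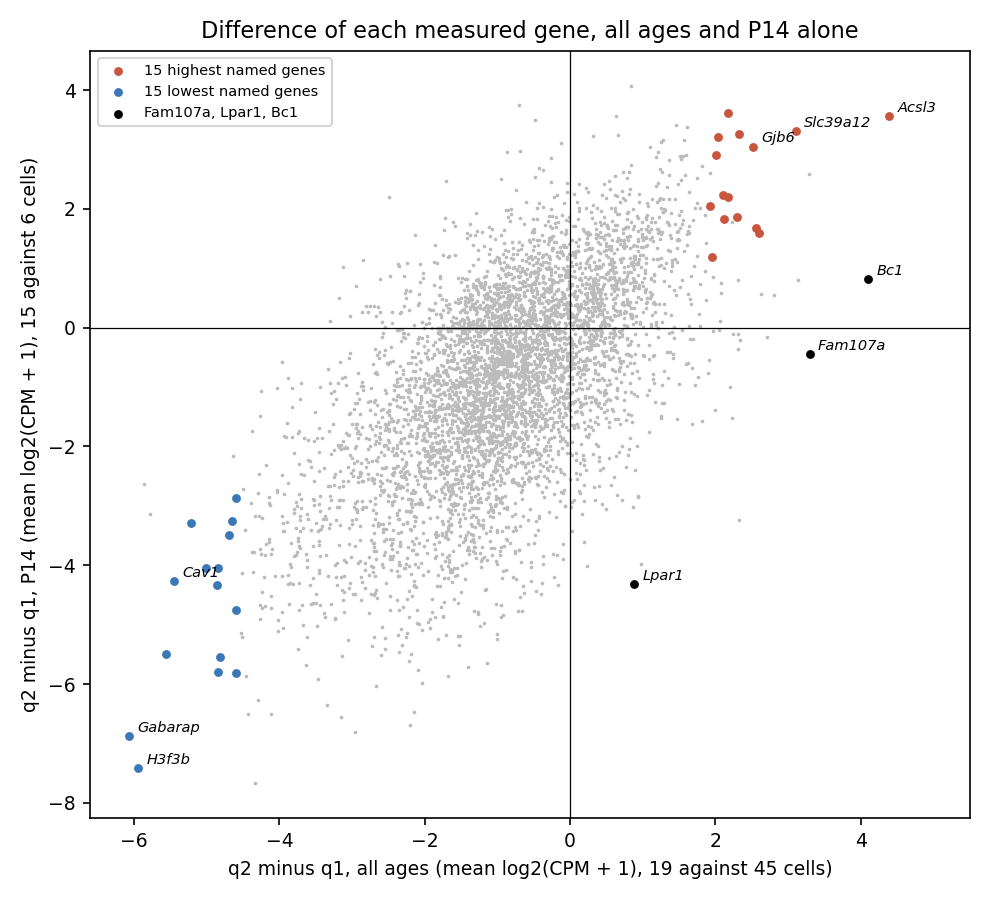
Difference in mean log2(CPM + 1), q2 minus q1, of each of 5123 measured genes over all ages (x axis, 19 against 45 cells) and in P14 cells alone (y axis, 15 against 6 cells). The 15 highest named genes (red) and the 15 lowest (blue) were picked to keep their sign at P14. Bc1 lies at 0.81 there, and Fam107a and Lpar1 (black) lie under 0 at P14.

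The 15 highest genes that kept their sign and at least 50% of their size at P14 are described first. Acsl3, which activates long-chain fatty acids for lipid synthesis and storage, had the largest difference. It was above 1 CPM in 14 of 19 q2 cells (73.7%, exact 95% interval 48.8 to 90.9%) and 14 of 45 q1 cells (31.1%, 18.2 to 46.6%). Its level ran from 0.00 to 11.09 with a median of 8.69 in q2, and from 0.00 to 10.15 with a median of 0.00 in q1. The means were 6.77 ± 4.36 (SD, n = 19) and 2.38 ± 3.62 (SD, n = 45), a difference of 4.39. At P14 it was read in 13 of 15 q2 cells and 3 of 6 q1 cells, with a difference of 3.57 and a range from 2.71 to 4.47 with each P14 cell left out in turn. Its q1 means were 1.60 (P3), 2.95 (P7) and 4.32 (P14), and MA cells had 8.07. Acsl6, which activates polyunsaturated fatty acids, had means of 4.61 in q2 and 2.28 in q1, a difference of 2.33 and of 3.27 at P14.

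Slc39a12, a zinc importer, was above 1 CPM in 10 of 19 q2 cells and 7 of 45 q1 cells. Its level ran from 0.00 to 11.53 with a median of 2.06 in q2, and from 0.00 to 10.45 with a median of 0.00 in q1, a difference of 3.11 in the means and of 3.31 at P14. The cells with the gene had like levels in both clusters, since the difference over cells above 1 CPM was -0.01. No a1 cell had it, and 16 of 18 MA cells did, at a mean of 8.37. Gjb6, the gap junction protein connexin 30 of astrocytes, was above 1 CPM in 0 of 45 q1 cells. The share of cells above 1 CPM there can thus be up to 6.67%, and 1 q1 cell of P14 stood just under it, at a level of 0.998. It was read in 6 of 19 q2 cells (31.6%, exact 95% interval 12.6 to 56.6%), all from P14, at up to 10.88. All 18 MA cells had it, at a mean of 9.91.

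The other 11 of the 15 had differences between 1.93 and 2.59. Of the 15 genes 13 differed by at least 2, but only 4 for the mean of the differences within ages (smallest 0.23), 6 without the cells with globin reads (smallest 0.89), 2 with a pseudocount of 10 and 5 of 14 over cells above 1 CPM only. Psap, the precursor of lysosomal activators of lipid breakdown, was read in 16 of 19 q2 and 26 of 45 q1 cells, with medians of 7.04 and 3.83 and a difference of 2.56 (1.68 at P14). Sdc4, a heparan sulfate proteoglycan of the cell surface, had a difference of 2.59, and Itgav, the integrin alpha V chain that pairs with several beta chains, one of 2.04. Hapln1, which links hyaluronan to proteoglycans of the matrix, differed by 2.18, and Mertk, a receptor for the uptake of dead cells and debris, by 2.01. Hsd11b1, which regenerates active glucocorticoid, differed by 2.12. Pou3f2, a transcription factor of neural progenitors, differed by 2.10, and Mterf3, a factor of mitochondrial gene expression, by 2.29. Zer1, a substrate receptor of a ubiquitin ligase, differed by 2.17, Rpph1, the RNA of ribonuclease P, by 1.95, and Mcmbp, a partner of the replicative helicase, by 1.93. A q2 cell had a median of 7 of the 15 genes above 1 CPM (1 to 15), a q1 cell 3 (0 to 10) and an MA cell 10.5 (8 to 15). The ranges of q2 and q1 overlap, and the genes were picked for a higher mean in q2.

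A further 13 genes were among the highest over all ages but missed the P14 condition. Beside Fam107a and Bc1 they include Ntsr2, a neurotensin receptor of astrocytes, with a difference of 3.13 over all ages and 0.80 at P14. Lgi1, a secreted protein of synapses, had 2.34 and -0.21. Glul, glutamine synthetase, had 2.31 and -0.11, and Lgr4, a receptor for R-spondins that strengthens Wnt signalling, had 2.23 and -1.52. Tmcc1, a membrane protein gene of the endoplasmic reticulum, had 2.20 and -0.998, and Ahcyl1, which binds the IP3 receptor, 2.001 and -1.38. Htra1, a secreted protease, had 2.08 and 0.59. The P14 cells of q1 had Lgi1 at a mean of 3.96 and Glul at 7.02.

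**Figure D4:**
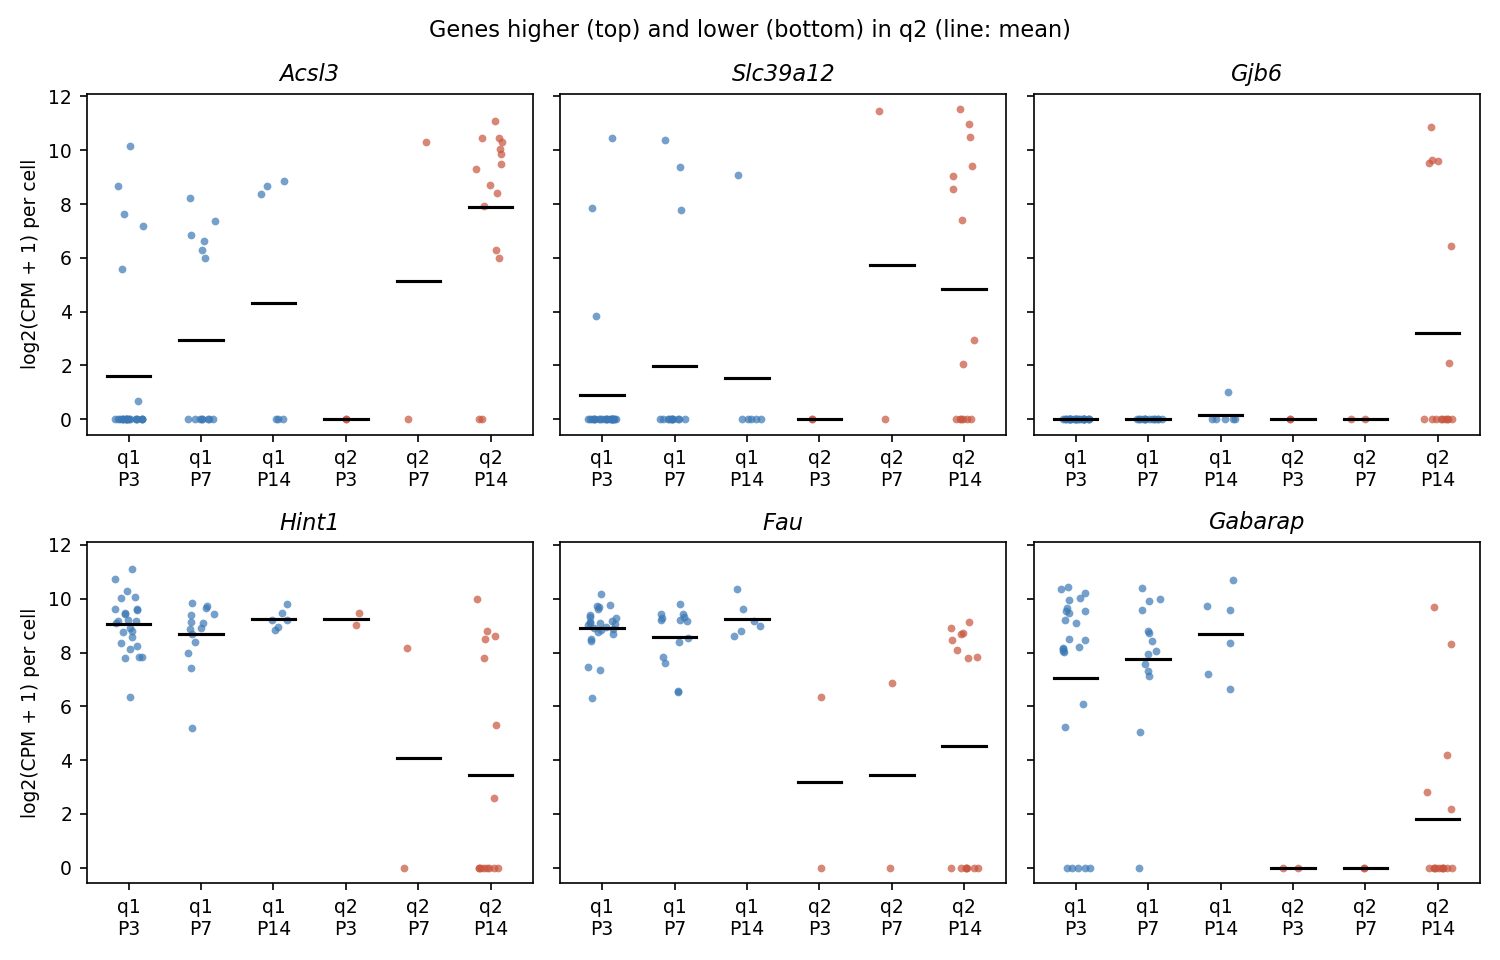
Level of 3 genes higher in q2 (Acsl3, Slc39a12, Gjb6) and 3 lower in q2 (Hint1, Fau, Gabarap) in log2(CPM + 1), each point 1 cell, by cluster and age, with a line at the mean. Gjb6 is above 1 CPM in q2 cells of P14 only among the 6 groups shown, and Hint1 and Fau are present in all 45 q1 cells and in 10 of 19 q2 cells each.

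The 15 lowest genes are mostly used by every cell, and 14 of them are named here. Hint1, a purine phosphoramidase, and Fau, which encodes a ribosomal protein fused to a ubiquitin-like one, were above 1 CPM in all 45 q1 cells and in 10 of 19 q2 cells each (52.6%, exact 95% interval 28.9 to 75.6%). Hint1 ran from 5.18 to 11.12 with a median of 9.13 in q1 and from 0.00 to 9.99 with a median of 2.59 in q2, a difference of -4.85. Fau ran from 6.32 to 10.34 with a median of 9.10 in q1 and from 0.00 to 9.12 with a median of 6.35 in q2, a difference of -4.60. At P14 the 6 q1 cells held Hint1 between 8.83 and 9.81 and Fau between 8.61 and 10.34, and Hint1 was read in 7 and Fau in 8 of 15 q2 cells. Only 58.2% of the nonzero values of Fau were whole numbers, so part of its reads may belong to copies of similar sequence.

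Gabarap, which builds autophagosomes, had the largest difference. It was read in 39 of 45 q1 cells and 5 of 19 q2 cells, with medians of 8.44 and 0.00, a highest cell of 10.68 and 9.70, and a difference of -6.07 (-6.88 at P14). H3f3b, a gene of the replication-independent histone H3.3, was read in 44 of 45 and 11 of 19 cells, with medians of 10.61 and 2.81 and a difference of -5.94 (-7.41 at P14). Sdhb, the iron-sulfur subunit of succinate dehydrogenase, was read in 42 of 45 and 6 of 19 cells, with medians of 8.81 and 0.00 and a difference of -5.56 (-5.50 at P14). In each of these genes some q2 cells reached the levels of q1.

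Cav1, caveolin 1 of membrane caveolae, was read in 31 of 45 q1 cells and 2 of 19 q2 cells, a difference of -5.45. At P14 it was read in 3 of 6 q1 cells and in 0 of 15 q2 cells, so the share of cells with reads there can be up to 20%. Fdps, farnesyl diphosphate synthase of the cholesterol pathway, was read in 28 of 45 and 2 of 19 cells, a difference of -4.85. Chmp5, of the ESCRT-III membrane machinery, was read in 33 of 45 and 1 of 19 cells, with -5.22. The remaining genes had differences from -5.01 to -4.59. They were Hnrnpc, which binds nuclear RNA (-5.01), Mrpl20 of the mitochondrial ribosome (-4.85), Ppp1ca, a catalytic subunit of protein phosphatase 1 (-4.82), Psma7 of the proteasome core (-4.70), Tst, the sulfur transferase rhodanese (-4.59), and Tceal8, related to transcription elongation factors (-4.59). A q1 cell had a median of 12 of the 15 genes above 1 CPM (9 to 15), a q2 cell 5 (1 to 9) and an MA cell 7.5 (1 to 13). The ranges of q1 and q2 meet at 9, and the genes were picked for a lower mean in q2.

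Rack1, a scaffold of the small ribosomal subunit, had the lowest value passed over by the P14 condition, -5.87 over all ages and -2.63 at P14. It was read in 43 of 45 q1 cells and 7 of 19 q2 cells. Its q1 means were 8.63 (P3), 7.66 (P7) and 5.16 (P14), lowest at the oldest age.

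Genes of protein synthesis were lower in q2 as a group than all measured genes, over all ages and at P14. The ribosomal list averaged 8.93 per q1 cell, while measured genes grouped by transcript length had median q1 means of 1.92 to 3.61. In those groups, genes with a q1 mean of 4 to 7 had median differences of -2.27 to -1.67, and of -2.16 to -1.43 at P14. Of genes read in at least 40% of q1 or q2 cells, 35% were lower by at least 2. Whether the lists differ from genes of like level was not tested. All 37 ribosomal protein genes measured had a lower mean in q2, with a median difference of -2.16, and 22 were lower by at least 2 log2 units, beside 16.5% of all measured genes and a median of -0.90. At P14 the median was -2.10 and 24 were lower by as much, beside 23.8%, and 20 of the 37 passed in both. Rps9 was read in 45 of 45 q1 and 13 of 19 q2 cells, at 7.65 to 11.69 (median 10.28) and 0.00 to 11.56 (median 8.34), a difference of -4.14. Rpl8 and Rpl4 of the large subunit differed by -3.97 and -3.95. The mean of the 37 genes in a cell ran from 7.10 to 10.28 in q1 and from 4.55 to 9.55 in q2. It averaged 6.62 in the P14 cells of q2 and was lower still in MA cells, at 5.73. MA stood above the P14 cells of q2 for 6 of the 37 genes, and the median of P14 q2 minus MA over the list was 0.87. Measured genes grouped by transcript length had medians of -0.33 to -0.17 in that contrast. As a share of all counts, ribosomal protein transcripts had medians of 7.455% in q1 and 4.613% in q2, and of 5.81% and 4.613% in their P14 cells. When only cells above 1 CPM were averaged the list median was -0.63, and the log2 ratios of the 2 mean CPM values gave -0.52.

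The lists of translation factors, proteasome, chaperones and splicing averaged 5.02 to 5.42 per q1 cell. Genes with a q1 mean of 4 to 7 had medians of -2.27 to -1.67 by group of transcript length. Of 26 translation factors, 13 (50%) were lower by at least 2 and 0 higher, beside 16.5% of all measured genes, with a median of -2.04 (-1.85 at P14). This median was -0.21 over cells above 1 CPM only and -1.01 as a ratio of mean CPM. Eef1d, a subunit of the elongation factor 1 exchange complex, differed by -4.11, and Eif4e, which binds the mRNA cap, by -3.71. Eef1g, of the same complex, differed by -4.38, but by 1.76 over cells above 1 CPM only, with 3 such q2 cells. Eif1, which guards start codon choice, had the only positive value in the list, 0.38. The list mean per cell averaged 2.63 in the P14 cells of q2 and 3.24 in MA. Among 23 proteasome genes, which degrade tagged proteins, 10 (43.5%) were lower by at least 2 (median -1.83, and -1.64 at P14), with Psma5 and Psmb6 at -4.13 and -4.12. The proteasome median turned to 0.39 over cells above 1 CPM only and was -0.51 as a ratio of mean CPM. Of 22 chaperones 10 (45.5%) were lower, and 5 (22.7%) at P14 beside 23.8% of all genes (median -1.55, -0.55 over cells above 1 CPM only and -0.37 as a ratio), with Hsp90aa1 at -3.71 and Cct8, of the ring that folds actin and tubulin, at -3.17. Hspa2, an HSP70 relative, stood at 1.73 over all ages and -0.97 at P14. Of 33 splicing and RNA-binding genes 12 (36.4%) were lower (median -1.51), with Ncl, nucleolin, at -3.61. Their median was -0.18 over cells above 1 CPM only and -0.09 as a ratio of mean CPM.

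The cytoskeleton list had a median of -1.97, and -1.96 at P14. Of its 19 genes 9 (47.4%) were lower by at least 2 in each comparison. Of all measured genes 16.5% were lower over all ages and 23.8% at P14. Tmsb10, which binds actin monomers, differed by -4.29, and Tubb5, a tubulin of dividing and growing cells, by -3.89. Cfl1, cofilin, which cuts actin filaments, was read in 45 of 45 q1 cells, at 4.56 to 10.07 with a median of 8.91, and in 13 of 19 q2 cells, at 0.00 to 8.87 with a median of 5.23. Its difference was -3.72, and the list median over cells above 1 CPM was -0.97. The list mean per cell averaged 4.32 in the P14 cells of q2 and 3.86 in MA.

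Energy metabolism did not form 1 group. Of 37 nuclear genes of oxidative phosphorylation, 7 (18.9%) were lower by at least 2, a share near the 16.5% of all measured genes, and 12 (32.4%) at P14 beside 23.8% (median -1.19). The largest differences were Sdhb at -5.56, Ndufb8 at -4.52 and Ndufb5 at -3.47, both of complex I, and Sdhd, another subunit of complex II, at -2.89. Sdha, the catalytic subunit of that complex, stood at 0.19. The list median changed sign to 0.44 when only cells above 1 CPM were averaged and to 0.20 for log2 ratios of the mean CPM values. The list averaged 6.14 per q1 cell. Genes with a q1 mean of 4 to 7 had medians of -2.27 to -1.67 by group of transcript length, further below 0 than the -1.19 of this list. Of the 13 genes of mitochondrial DNA 3 (23.1%) were higher by at least 2 over all ages and 0 at P14. The shares of all measured genes were 0.664% and 2.13%. The 13 genes had a median of 0.71 over all ages and -0.47 at P14. Among them mt-Nd5, a complex I subunit, stood at -0.97 and -1.93. A gene of complex IV, mt-Co3, was above 1 CPM in 9 of 45 q1 and 10 of 19 q2 cells and differed by 2.33 over all ages and by -3.24 at P14. The other two of the 3 higher, mt-Atp6 of the ATP synthase and mt-Nd3 of complex I, differed by 2.71 and 2.24 over all ages and by -0.16 and -0.11 at P14. Of the nonzero values, none were whole numbers for mt-Co3, 5.45% for mt-Atp6 and 22.6% for mt-Nd3, so their reads may be shared with copies of similar sequence. Of 13 glycolysis genes 6 (46.2%) were lower, and 5 (38.5%) at P14 (median -1.99, and -0.98 at P14), with Ldha, lactate dehydrogenase, at -3.57 and Tpi1, triosephosphate isomerase, at -3.49. The median was -0.07 over cells above 1 CPM only and -0.26 with no detection minimum. Pgk1, phosphoglycerate kinase, differed by -3.08, and by 0.26 over cells above 1 CPM only.

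Of 19 genes of fatty acid use, 3 (15.8%) were lower by at least 2, a share near the 16.5% of all measured genes. These were Acadm, a dehydrogenase of beta-oxidation, at -2.95 (-1.69 at P14), and Eci2 and Echs1, an isomerase and a hydratase acting on unsaturated intermediates, at -2.95 and -2.34, which turned to 0.71 and 0.25 at P14. The 2 higher (10.5%, beside 0.664% of all measured genes) were Acsl3 and Acsl6, which activate fatty acids ahead of several fates. The median was -0.66 beside -0.90 for all genes. Among 21 genes of cholesterol synthesis 5 (23.8%) were lower (median -0.77), while at P14 5 (23.8%) were higher, beside 2.13% of all genes, and 3 (14.3%) lower (median 0.03). Fdft1, squalene synthase, differed by -2.44, but by 0.34 over cells above 1 CPM only and 0.07 as a ratio of mean CPM. Hmgcs1, which makes HMG-CoA, was read in 45 of 45 q1 cells, at 5.83 to 11.84 with a median of 10.49, and in 14 of 19 q2 cells, at 0.00 to 10.95 with a median of 9.55, a difference of -3.46 (-4.09 at P14). Of 20 genes against oxidants 6 (30%) were lower, beside 16.5% of all measured genes, and 9 (45%) at P14, beside 23.8% of all measured genes. The list median of -0.98 was -0.08 after centring and turned to 0.11 over cells above 1 CPM only. The list held Prdx5, a peroxiredoxin, at -3.97 and Gpx1, a glutathione peroxidase, at -2.69, while Sod2 of mitochondria stood at 0.52. Glrx, glutaredoxin, differed by -2.79 but by 0.26 at P14, and Nfe2l2, the oxidant-response factor NRF2, by -2.82 but by 1.08 over cells above 1 CPM only. In the lysosome list 3 of 19 (15.8%) were lower, near the share of all genes. Lower at P14 were 7 (36.8%), beside 23.8% of all measured genes. The list median was -1.02, with the membrane protein gene Cd63 at -3.17, and against it Psap at 2.56 and Lamp1, a main lysosomal membrane protein, at 1.47.

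**Figure D5:**
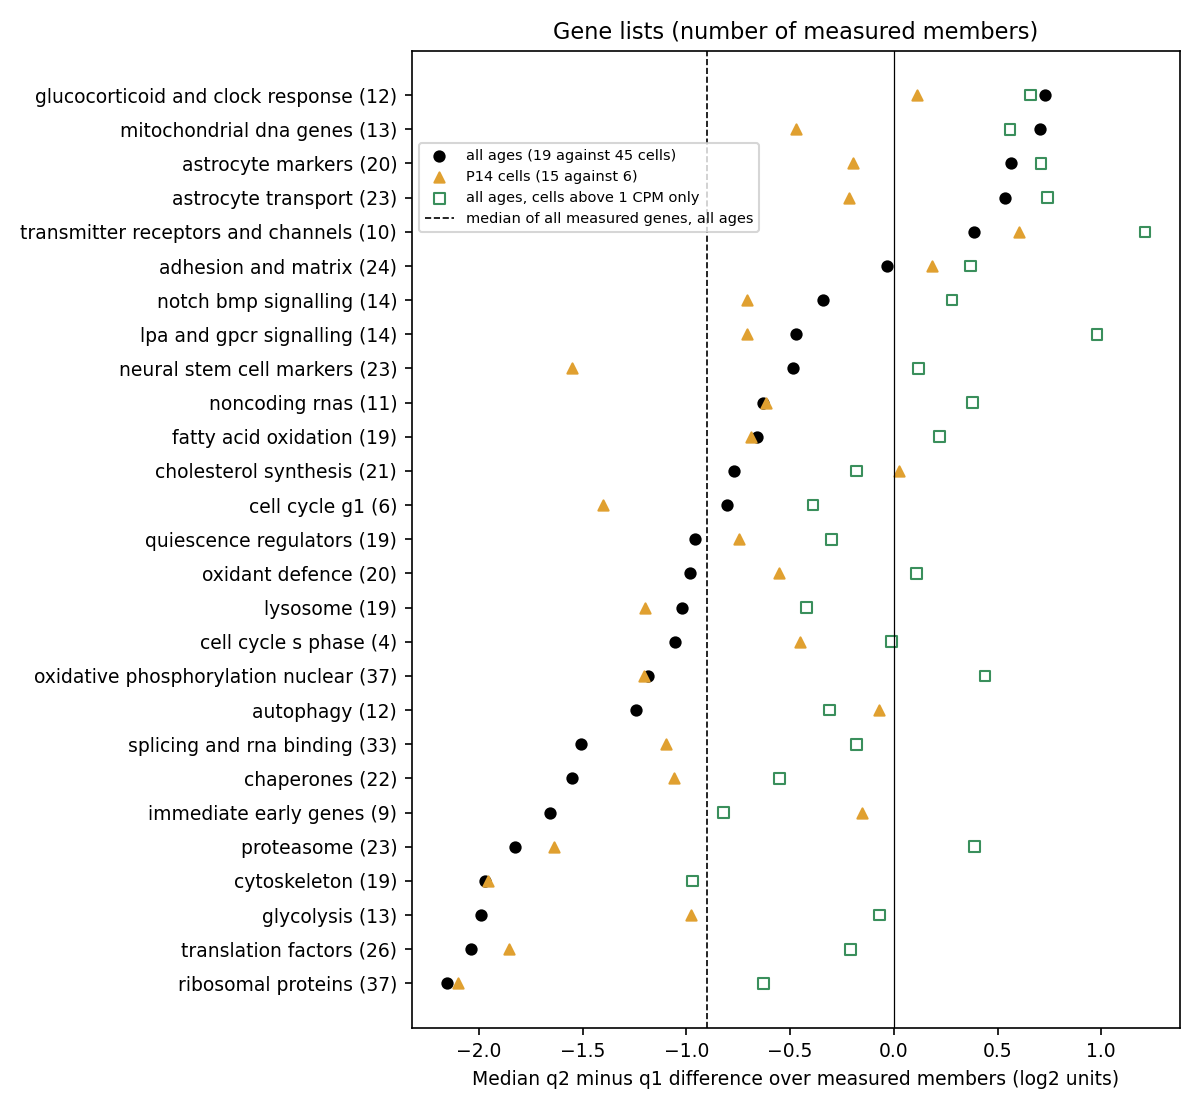
Median difference, q2 minus q1, over the measured members of each gene list with at least 4 (number in brackets), over all ages (black), in P14 cells (orange triangles) and over cells above 1 CPM only (green squares), in log2 units. The dashed line is the median of all measured genes, -0.90, and the lists of ribosomal proteins, translation factors and cytoskeleton lie below it over all ages and at P14.

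Stem cell and quiescence genes were not higher in q2 as groups. The 23 neural stem cell markers had a median of -0.49, above the -0.90 of all measured genes, with 1 (4.35%) lower and 1 higher by at least 2. Of all measured genes 16.5% were lower and 0.664% higher. At P14 the markers had a median of -1.55, below the -0.76 of all measured genes. Lower there were 7 (30.4%), beside 23.8% of all measured genes, and 0 were higher. The mean of the list per cell at P14 was 7.31 ± 0.57 (SD, n = 6) in q1 and 5.74 ± 1.28 (SD, n = 15) in q2, with ranges of 6.53 to 8.05 and 2.42 to 7.16. Vim, an intermediate filament of radial cells, differed by -2.28, and Fabp7, the brain fatty acid-binding protein, by -1.74 (-0.42 at P14), although all cells of both clusters had Fabp7, at 11.93 to 16.94 in q1 and 11.23 to 15.41 in q2. Sox2, a transcription factor that keeps the stem cell state, was read in 33 of 45 q1 and 8 of 19 q2 cells and differed by -1.57 (-2.35 at P14). Tfap2c, a transcription factor of progenitors, differed by -1.72 (-3.52 at P14).

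Of 19 quiescence regulators 5 (26.3%) were lower by at least 2 and 0 higher, beside 16.5% of all genes, and 3 (15.8%) were lower at P14, beside 23.8%. Their median of -0.96 lay -0.06 from that of all measured genes. Id3, an inhibitor of differentiation factors that BMP signals induce, differed by -3.03 (-0.42 at P14), and Nfix, a factor of stem cell quiescence, by -2.55 (0.02 at P14). Btg2, an antiproliferative gene, differed by -2.30, but by 0.31 over cells above 1 CPM only. Klf9, a glucocorticoid-induced repressor, stood against them at 1.48 (1.34 at P14). In the Notch and BMP list 1 of 14 was lower by at least 2. This was Rbpj, the DNA-binding partner of Notch receptors, read in 23 of 45 q1 cells, at 0.00 to 9.65 with a median of 1.78, and in 2 of 19 q2 cells, at up to 4.50. Its difference was -2.70 (-3.75 at P14), while the receptor Notch2 stood at 1.08 (-0.53 at P14). Lpar4, another receptor for lysophosphatidic acid, was read in 16 of 45 q1 cells and in 0 of 19 q2 cells, so the share of cells with reads there can be up to 15.8%. Adgrg1, an adhesion receptor, differed by -2.57 (0.47 over cells above 1 CPM only), and Grm5, a glutamate receptor, by -2.03 (0.09 at P14). Gpr37l1, an orphan receptor of glia, stood at 1.91 (-0.55 at P14).

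Cell cycle genes were rarely measured in these clusters. Of 23 S-phase genes listed, 4 passed the minimum, and Pcna, the sliding clamp of replication, was the 1 lower by at least 2, with -2.68. Of 24 mitosis genes 2 passed, with Hmgb2, a chromatin protein, at -1.99. Ccnd2 and Cdk4, which drive G1, differed by -2.78 and -2.60. Immediate early genes, which a stimulus soon switches on, had a median of -1.66 with 4 of 9 (44.4%) lower by at least 2. At P14 the median was -0.16 with 1 (11.1%) lower. Of all measured genes 16.5% were lower over all ages and 23.8% at P14. Fos, a part of AP-1, was read in 34 of 45 q1 and 7 of 19 q2 cells, with medians of 8.78 and 0.00 and a difference of -3.96 (-2.48 at P14). Dusp1, a phosphatase of MAP kinases, differed by -2.55, but by 0.98 as a ratio of mean CPM.

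Astrocyte genes stood between q1 and MA over all ages, and at P14 their median differences between q2 and q1 were close to 0. The 23 genes of astrocyte transport had a median difference of 0.53, and of -0.21 at P14. The 20 genes of the astrocyte marker list had 0.56 and -0.20. The medians of all measured genes were -0.90 and -0.76, so both lists lay above them. In each list 2 members were higher by at least 2 and 0 lower, beside 0.664% and 16.5% of all measured genes. Gjb6 belongs to both lists. At P14 the transport list had 3 (13%) higher and 2 (8.7%) lower. The marker list had 3 (15%) higher and 1 (5%) lower there, beside 2.13% and 23.8% of all measured genes. Clu, a secreted chaperone, stood at 1.90 (-0.76 at P14). Slco1c1, a carrier of thyroid hormone, stood at 1.75 (2.52 at P14) and Slc7a10, a carrier of small amino acids, at 1.25 (2.01 at P14). Aldoc, the brain aldolase of astrocytes, stood against them at -1.21 (-2.08 at P14). Set against the 18 MA cells, the P14 cells of q2 were lower for 21 of 23 transport genes, with a median of -1.29, and for 17 of 20 markers, with a median of -1.52. Measured genes grouped by transcript length were also lower in this contrast, with medians of -0.33 to -0.17. MA cells had more genes above 1 CPM, a median of 2420 against 1970 in the P14 cells of q2. Inside q1 the same lists were higher at P14 than at P3, by medians of 1.27 and 1.38.

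Among q2 cells the mean of the transport list spread widely, from 1.60 to 9.58 with an SD of 2.13, against 2.05 to 7.70 and 1.35 in q1. Over the 19 q2 cells it went with the number of genes detected (Pearson r = 0.754), and over the 45 q1 cells r was 0.136. The mean of the ribosomal list showed r = 0.047 with genes detected in q2 and 0.367 in q1. For the proteasome list r was 0.342 in q2 and 0.387 in q1. For the cytoskeleton list it was 0.294 and 0.363. These values share the depth of each cell and carry no test.

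Of the adhesion and matrix list, 2 of 24 genes (8.33%) were higher and 2 (8.33%) lower by at least 2 (median -0.03). Of all measured genes 0.664% were higher and 16.5% lower. Hapln1 and Htra1 were the higher ones, while Tnc, tenascin C of the stem cell niche, differed by -2.73 and Ncan, a proteoglycan of brain matrix, by -2.22 (0.30 at P14). The 12 glucocorticoid and clock genes had a median of 0.73 (0.11 at P14), led by Fam107a and Klf9, with Dbp, a clock output factor, at 1.19 (2.12 at P14). Of 11 noncoding RNAs 1 was higher, Bc1, and 2 were lower, the small nucleolar RNA hosts Snhg8 at -2.88 and Snhg1 at -2.24. Of 12 autophagy genes 1, Gabarap, was lower by at least 2 (median -1.24, and -0.07 at P14).

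Lower genes had shorter transcripts, a comparison made after the data were seen. The longest annotated transcript had a median of 3098 bases over measured genes, of which 91.6% had a length, 1996 bases over genes lower by at least 2 and 2821 over those higher. In the fifth of genes with the shortest transcripts, up to 1493 bases, 31.5% were lower by at least 2, and in the fifth with the longest 8.52%. At P14 these shares were 37.4% and 19.5%. These groups also differed in level, with median q1 means of 3.61 and 1.96 in log2(CPM + 1), a scale that is not per length. Among genes with a q1 mean of 4 to 7 on that scale the median difference was -2.27 for the shortest and -1.67 for the longest.

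Few of the listed markers of other cell types were measured, though single cells held high sums of some. Of the listed genes with an entry in the deposited data, 2 of 12 of intermediate progenitors were measured and 3 of 16 of neuroblasts and neurons. For the oligodendrocyte lineage it was 2 of 6, for ependymal cells 1 of 8, for vessels 1 of 4 and for microglia 0 of 2. The full lists held 14 oligodendrocyte lineage, 14 vascular and 12 microglia genes, so most of these had no entry and could not be assessed. The summed level of the listed markers per cell was 0 to 1310 CPM in q1 and 0 to 856 in q2 for intermediate progenitors, and 0 to 2210 and 0 to 2020 for neuroblasts and neurons. Prox1, a factor of granule neurons and their progenitors, differed by -1.97 and Sox11, of immature neurons, by -1.71. Cnp, a myelin gene, was at 1.28 (2.17 at P14). Rgs5, which is known from pericytes, was read in 24 of 45 q1 cells, at up to 11.79, and in 2 of 19 q2 cells, at up to 6.92, a difference of -4.20. Summed vascular markers ran from 0 to 4880 CPM in q1, with 15 cells at 0, and from 0 to 120 in q2, with 11 at 0. Summed ependymal markers ran from 0 to 8680 CPM in q1, with 27 cells at 0, and from 0 to 540 in q2, with 12 at 0. Globin reads, a sign of red blood cell RNA, were found in 4 of 45 q1 cells and 7 of 19 q2 cells, and at P14 in 3 of 6 and 7 of 15. Hba-a1 of the alpha globins differed by 2.23. Without the cells with globin reads 49 genes were higher and 841 lower by at least 2. The part of these cell types in the differences was not tested.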

How the data were processed

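Single cells sorted for Hopx-GFP fluorescence from the mouse dentate gyrus were read with SMART-Seq2 and Tn5 libraries, per the labels' protocols. The authors deposited 1 table with age, cluster and pseudotime per cell and an estimated count per gene and cell, which RSEM makes from the reads (named per the submitters' processing notes). It is named TPM, but column totals differ and 82.79% of nonzero values are whole within 0.005, so the values were treated as counts and not rounded. These notes also name cutadapt and the build mm10 and give no versions. Animals, strand and clustering method are not given in the sources used here. Of 15704 entries 15134 (96.37%) matched GENCODE M21 symbols.

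CPM were computed over the gene total of each cell with Python 3.11.15, numpy 2.4.6, pandas 2.3.3 and scipy 1.17.1, and differences taken in mean log2(CPM + 1). Genes above 1 CPM in at least 20% of q1 or q2 cells were measured, and 2 log2 units was the size used for counts. Depth ranged from 26714 to 3779368 counts per cell in q1 and q2. Reads carry no molecular identifiers, so intervals (exact Clopper-Pearson, 95%) and limits from 0 (3 counts) cover counting error only. Doublets were not called, and all 64 cells entered the main values. The planned unit was TPM or counts as found in the file, and no test was planned or run, since each age is 1 sample. The computation was also tested on simulated data.

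Named genes are the 3 given markers, the 15 highest and 15 lowest genes that keep their sign and 50% of their size at P14, passing over predicted models, Xist and Y-linked genes, names turned into dates and genes with under 50% whole values, and up to 4 members along and 2 against the median of each of 35 gene lists. Of these genes 75 are not named. Which to name was chosen after their values were seen, except that every gene differing by at least 2 that changed sign under some alternative is named, and a few results are not reported here. The members and lists were chosen with earlier results of these data known. Alternatives covered P14 cells alone, differences within ages, the pseudocount, ratios of mean CPM, cells above 1 CPM only, centring, totals, thinning, subsets of cells, the detection minimum and the size limit.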

Additional observations from a re-analysis of the deposited data

How the results depend on the processing

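The recomputed values describe the same cells, so they show what each value rests on and not how far other cells would repeat it. No paired analysis was possible because the labels name no animal and each age is 1 sample. Genes higher by at least 2 were 0.664% of those measured and genes lower 16.5%. The higher share was 2.13% in P14 cells alone, 1.91% for the mean of the differences within ages, 1.83% in cells with 1500 to 3500 genes, 1.03% without cycling cells, 5.54% for ratios of mean CPM and 2.17% in cells with at least 70% of the genes common in a1, chosen after the data were seen. Both shares moved to 2.01% and 32% with a pseudocount of 0.1, 0.137% and 3.86% with 10, 5.65% and 5.44% over cells above 1 CPM only, 4.22% and 5.91% after centring, 1.3% and 35% for genes in at least 40% of cells, 0.233% and 5.8% with no detection minimum, which adds genes rarely read, and 5.02% and 45.8% at a size of 1 log2 unit. The setting of cells above 1 CPM only covered 3768 genes. Other totals, thinned counts and leaving out cells with globin reads kept both shares within 1.5 times.

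List medians changed sign in 43 of 432 recomputations. Over cells above 1 CPM only, the proteasome list stood at 0.39, oxidative phosphorylation at 0.44 (0.20 as a ratio of mean CPM), glycolysis at -0.07, oxidant defence at 0.11, ribosomal proteins at -0.63, translation factors at -0.21, splicing at -0.18, cytoskeleton at -0.97 and noncoding RNAs at 0.38. As ratios of mean CPM the medians were -0.52 for ribosomal proteins, -1.01 for translation factors, -0.09 for splicing, -0.51 for proteasome, -0.37 for chaperones, -1.02 for cytoskeleton and 0.47 for noncoding RNAs. Centring gave -0.29 for oxidative phosphorylation, -0.08 for oxidant defence and 0.27 for noncoding RNAs. At P14 the stem cell markers stood at -1.55 (-1.72 within ages) and autophagy at -0.07. Glycolysis was -0.26 with no detection minimum and translation factors -3.05 with a pseudocount of 0.1.

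Of all genes that the naming rule takes, with a difference of at least 2 in size, the sign changed at P14 for Fam107a, at -0.45 (-0.80 within ages), Lgi1 at -0.21, Glul at -0.11, Lgr4 at -1.52, Nfix at 0.016, Ncan at 0.30, mt-Co3 at -3.24, mt-Atp6 at -0.16, mt-Nd3 at -0.11, Tmcc1 at -0.998, Ahcyl1 at -1.38, Grm5 at 0.091, Eci2 at 0.71, Echs1 at 0.25 and Glrx at 0.26. Over cells above 1 CPM only it changed for Slc39a12 at -0.014, Tceal8 at 0.10, mt-Co3 at -0.99, Btg2 at 0.31, Adgrg1 at 0.47, Echs1 at 0.34, Fdft1 at 0.34 (0.07 as a ratio of mean CPM), Pgk1 at 0.26, Nfe2l2 at 1.08, Eef1g at 1.76 and Lgi1 at -1.81 (-0.25 as a ratio). Dusp1 stood at 0.98 as a ratio, and Hba-a1 at 0.00 without the cells with globin reads, which that setting removes. These are 31 values in 25 genes. The cause of these changes was not tested.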
